A study of Mus musculus with 7 samples.

Results

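The 10 genes described here encode Toll-like receptors (Tlr1, Tlr2, Tlr3, Tlr4, Tlr5 and Tlr7), the proteins that deliver bacterial lipopolysaccharide (LPS) to one of them (Cd14, Ly96 and Lbp) and a shared signalling adaptor (Myd88). They were taken by gene symbol from a deposited table of 28828 genes, and all 10 were present. Whole lung RNA of wild type mice was compared with that of mice in which Scgb3a2, a secretoglobin gene of airway secretory cells, was knocked out, both on the C57BL/6 strain. There were 4 wild type libraries (WT2, WT3, WT4 and WT6) and 3 knockout libraries (KO3, KO4 and KO5), where the digit is that of the title. The labels name no treatment, and they leave out age, sex and the structure of the allele. Nothing in them ties each library to a separate mouse, and the p-values therefore cover only the spread among these libraries, which may be technical.

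Toll-like receptors are membrane proteins of the innate immune system that bind conserved microbial molecules. In the classical LPS route, the plasma protein encoded by Lbp transfers LPS to CD14, which passes it to the complex of TLR4 with MD-2, the product of Ly96. TLR1 pairs with TLR2 to bind bacterial lipoproteins, TLR5 binds flagellin, and TLR3 and TLR7 bind RNA inside endosomes. All of these receptors except TLR3 signal through MyD88 to NF-kB. In lung they are found in macrophages, dendritic cells, epithelium and endothelium, and B cells also carry several of them.

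The libraries held 13071262 to 16480006 counts. Values are given as CPM, read counts relative to library sizes scaled by the TMM method, and 3 counts correspond to at most 0.222 CPM. Scgb3a2 had 2636 to 4204 counts in the wild type and 19 to 37 in the knockout libraries, so that each library carried the level its label states. Lung markers were present in all libraries, with 5897 to 8771 CPM of the surfactant protein gene Sftpc and 6768 to 14581 CPM of the club cell gene Scgb1a1. In earlier results on these data WT6 and KO5 stood apart, and several results are also given without this pair.

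None of the 10 genes passed the test between genotypes. All 10 passed the filter on low counts, 0 were called by edgeR's quasi-likelihood test at an adjusted p under 0.05, and 0 had an unadjusted p under 0.05. Over all 19832 genes tested, 7 passed (0.0353%), and 569 (2.87%) had an unadjusted p under 0.05. DESeq2 called 60 genes (0.277%) and 0 members, and gave 1 member, Tlr1, an unadjusted p under 0.05, against 2.43% of all genes. The knockout and wild type values overlapped for each of the 10 genes, while 3.72% of all genes had groups that did not overlap. Of the log2 fold changes, 5 were positive and 5 negative, with a median of 0.02 beside -0.01 over all genes.

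**Figure D1:**
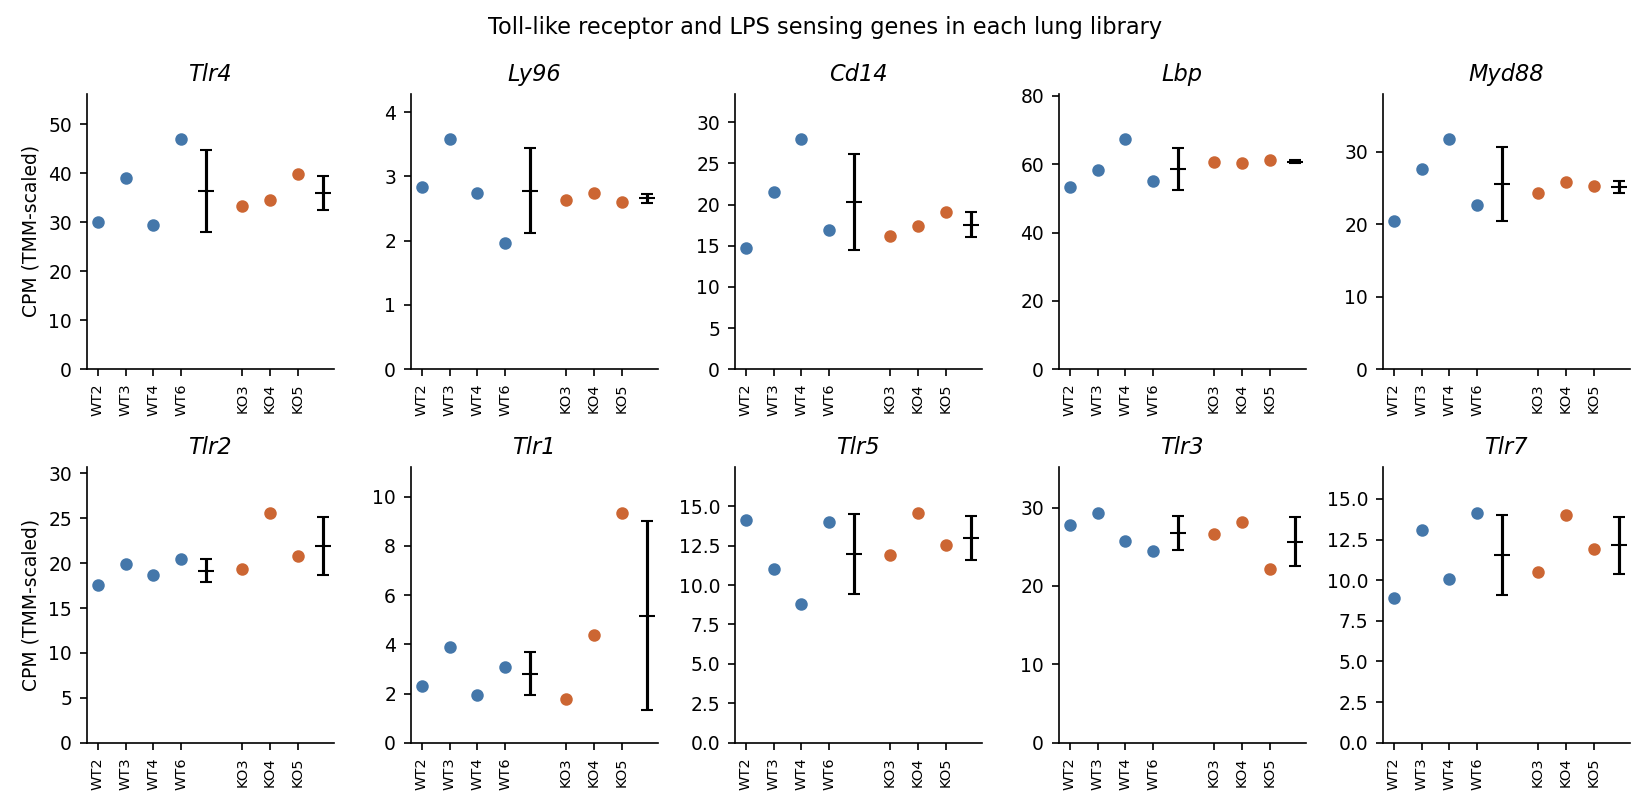
Level of each gene in each lung library, in CPM on TMM-scaled library sizes, with wild type libraries in blue and knockout libraries in orange. Each axis starts at 0, and the black bar beside each group is its mean with the SD (n = 4 and n = 3). The groups overlap in every panel, and the knockout library KO5 stands highest for Tlr1 at 9.34 CPM.

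The LPS receptor complex was present at similar mean levels in both genotypes. Tlr4 (chromosome 4, 66827584 to 66930284, plus strand, GRCm38) had 30.0, 39.1, 29.4 and 46.9 CPM in WT2, WT3, WT4 and WT6. The knockout libraries KO3, KO4 and KO5 had 33.3, 34.6 and 39.9 CPM. WT6 was the highest and WT4 the lowest library, and all knockout values fell between them. The log2 fold change was -0.02 ± 0.16 (SE), with a 95% interval of -0.38 to 0.34 (edgeR adjusted p = 0.9998). Its partner Ly96 (chromosome 1, 16688051 to 16709611, plus strand) was among the least abundant members, with 47, 56, 37 and 28 counts in the wild type and 39, 43 and 36 counts in the knockout libraries. These were 2.83, 3.58, 2.74 and 1.97 CPM and 2.64, 2.74 and 2.61 CPM, again with all knockout values inside the wild type range. With so few reads the interval was wide, from -0.61 to 0.47 around a log2 fold change of -0.07 (-0.18 without WT6 and KO5). Differences inside this interval are compatible with these counts.

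Cd14, the co-receptor that hands LPS to the TLR4 complex, lies on chromosome 18 (36725067 to 36726798, minus strand), 7.04 Mb from Scgb3a2. It had 14.8, 21.6, 27.9 and 16.9 CPM in WT2, WT3, WT4 and WT6, and the 3 knockout libraries had 16.2, 17.4 and 19.1 CPM. WT4 and WT3 were above all knockout libraries and WT2 was below them. The log2 fold change of -0.21 ± 0.20 (SE) was the most negative of the 10, with a 95% interval of -0.64 to 0.23 (edgeR adjusted p = 0.9998). It was -0.02 without WT4, -0.34 without WT2 and -0.34 without both WT6 and KO5. With a block for the replicate numbers that the genotypes share, it was -0.55 (adjusted p = 0.0490 in edgeR). The difference in that fit comes only from WT3, WT4, KO3 and KO4, so that WT2, WT6 and KO5 do not bear on it. WT3 and WT4 were the highest wild type libraries for Cd14, and KO3 and KO4 the lowest knockout libraries. A p-value from so few libraries is uncertain. The labels do not say whether these numbers pair the libraries.

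Lbp and Myd88 stand at the start and the end of the LPS route. Lbp (chromosome 2, 158306493 to 158332852, plus strand) had 53.4, 58.4, 67.3 and 55.1 CPM in the wild type and 60.6, 60.5 and 61.2 CPM in the knockout libraries. Its interval was the narrowest of the 10, from -0.17 to 0.28 around 0.05. Hepatocytes are the known source of the plasma protein, and Alb, their main product, had 0.241 to 1.92 CPM in these libraries. The 6 hepatocyte markers found by symbol summed to 11.7 to 30.2 CPM in the wild type and 7.51 to 14.2 CPM in the knockout libraries. The largest part was Cyp2e1, at 4.52 to 28.0 CPM. The source of the Lbp reads was not tested. Myd88 (chromosome 9, 119335934 to 119341411, minus strand) had 20.4, 27.6, 31.7 and 22.6 CPM in the wild type and 24.3, 25.8 and 25.2 CPM in the knockout libraries. Its log2 fold change was -0.02 with an interval of -0.35 to 0.30 (-0.08 without WT6 and KO5). The annotation places Slc22a14 on the same strand and Acaa1a on the other strand across part of Myd88. Reads may have been shared where exons overlap.

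Cd14, Lbp and Myd88 ordered the wild type libraries in the same way. For all 3, WT2 was lowest, followed by WT6, WT3 and WT4, whereas Tlr5 had exactly the reverse order. The order was noticed after the values were seen. It did not extend to the knockout libraries, where KO3 was lowest for Cd14 and Myd88 and KO4 for Lbp. For Lbp, Myd88 and Ly96, the only 3 of the 10 members of which this held, the knockout libraries varied less than counting alone gives. Their coefficient of variation was 0.621% for Lbp, 3.16% for Myd88 and 2.57% for Ly96, beside 3.34%, 5.19% and 15.9% from counting at their depth. In the wild type libraries it was 10.5%, 19.9% and 23.6%. For Cd14 it was 8.48% in the knockout libraries, with 6.22% from counting, and 28.6% in the wild type. The share of all genes with less variation than counting gives was not determined, and an SD from 3 libraries is uncertain. In all, 7 of 10 members varied more among wild type than among knockout libraries, compared with 58.0% of all genes, and 6 of 10 had every knockout value inside the wild type range, compared with 35.6% of all genes.

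Tlr1 and Tlr2 encode the chains of 1 lipoprotein receptor and varied differently across the libraries. The stretches upstream of their annotated starts are shown as a description, 5' to 3', from RefSeq promoter windows of GRCm38.p6 with exon bases left out. Whether their letters bear on the variation across libraries was not tested. Capitals in Tlr1 mark GAGGAA, the core letters bound by the myeloid and B cell factor PU.1, and capitals in Tlr2 mark matches to GGGANTT, the first letters of many NF-kB sites, on both strands. The Tlr1 stretch is chr5:64933564-64933808 and the Tlr2 stretch chr3:83841768-83841858, both on the minus strand.
Tlr1: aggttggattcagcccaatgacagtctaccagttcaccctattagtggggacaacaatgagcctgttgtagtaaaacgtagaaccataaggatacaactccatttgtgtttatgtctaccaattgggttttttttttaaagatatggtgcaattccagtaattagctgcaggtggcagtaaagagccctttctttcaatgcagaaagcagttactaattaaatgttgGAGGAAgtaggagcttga
Tlr2: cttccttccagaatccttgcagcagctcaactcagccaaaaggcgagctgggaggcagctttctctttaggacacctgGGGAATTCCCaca
Each motif was searched on both strands of the 250 bases before each RefSeq start. GAGGAA occurred in 23.3% of 32851 such windows and GGGANTT in 14.4%. The Tlr2 matches overlap, since the letters read the same on both strands. GGGANTT, a shortened form, was chosen after the Tlr2 letters were seen. Promoter windows were matched for 5 of the 10 members (Tlr1, Tlr2, Tlr3, Tlr5 and Myd88). A further Tlr1 window, Tlr5 and Myd88 held neither motif, Tlr3 held GGGANTT, and a match describes letters, not a bound site.

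Tlr1 (chromosome 5, 64924679 to 64933563, minus strand) had the largest fold change and the largest spread of the members. Counts were 38, 61, 26 and 44 in WT2, WT3, WT4 and WT6 and 26, 69 and 129 in KO3, KO4 and KO5. In CPM these were 2.29, 3.89, 1.92 and 3.09 and then 1.76, 4.39 and 9.34, so that a knockout library was the lowest and another the highest of all 7. Means were 2.80 ± 0.88 CPM (SD, n = 4) and 5.16 ± 3.85 CPM (SD, n = 3). The log2 fold change was 0.87 ± 0.48 (SE), with a 95% interval of -0.20 to 1.94 (unadjusted p = 0.0998, adjusted p = 0.9998 in edgeR). It was 0.14 without KO5, 0.19 without both WT6 and KO5, and 1.28 without KO3 (unadjusted p = 0.00356, adjusted p = 0.418 in edgeR).

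The summed markers of B cells, of plasma cells and of T and NK cells were higher in KO5 than in the other libraries, as Tlr1 was. All 8 genes of the B cell list were present and none was at 0, and their summed level was 22.6 to 60.1 CPM in the wild type libraries and 41.9, 89.4 and 202 CPM in the knockout libraries KO3, KO4 and KO5. KO3 was the lowest knockout library for both this sum and Tlr1, and KO5 was the highest of all 7 for both. KO3 had the lowest Tlr1 of all 7 libraries but a larger B cell sum than WT3 and WT4, and among wild type libraries Tlr1 was highest in WT3 and the sum in WT6. The 8 plasma cell markers summed to 252 to 275 CPM in the wild type and 437 (KO3), 972 (KO4) and 2012 CPM (KO5) in the knockout. The 10 T and NK cell markers summed to 15.0 to 25.8 CPM and then 24.3, 32.7 and 49.3 CPM. Of that list, Ncr1, Nkg7 and Klrb1c were not highest in KO5, where they had 1.30, 2.75 and 1.09 CPM. Ncr1 and Nkg7 had 2.71 and 3.80 CPM in WT2, and Klrb1c had 1.62 CPM in WT6. Among 17843 genes with a mean of at least 1 CPM, those whose log2 CPM followed Tlr1 most closely over the 7 libraries were Bcl11a (Pearson r = 0.967) and Blk (r = 0.964), the latter a B cell kinase of that list. These values are descriptions, since a high r over 7 libraries is common among so many genes, and the part of these cell types in the Tlr1 values was not tested. In whole tissue, more cells of a type and more RNA per cell cannot be told apart.

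Tlr2 (chromosome 3, 83836272 to 83841767, minus strand), the partner chain, did not share this pattern. It had 17.6, 19.9, 18.7 and 20.5 CPM in the wild type and 19.3, 25.6 and 20.8 CPM in the knockout libraries, with KO4 rather than KO5 the highest. The log2 fold change was 0.19 ± 0.13 (SE), with a 95% interval of -0.09 to 0.48, and 0.06 without KO4. The highest library exceeded the lowest 1.45-fold for Tlr2 and 5.32-fold for Tlr1. Part of Tlr1 has the same letters as its neighbour Tlr6, which lies 18.5 kb away. Reads of 50 bases or fewer cannot be told apart there, whereas longer reads may be. Of all 50-base windows of the longest Tlr1 transcript, 15.3% occurred in Tlr6 transcripts, while no such window of Tlr2, Tlr3, Tlr4, Tlr5, Tlr7, Cd14, Ly96 or Myd88 occurred in another gene. Tlr6 itself had 0.89 to 3.38 CPM in the wild type and 1.65 to 2.17 CPM in the knockout libraries, and KO5 did not stand apart there.

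**Figure D2:**
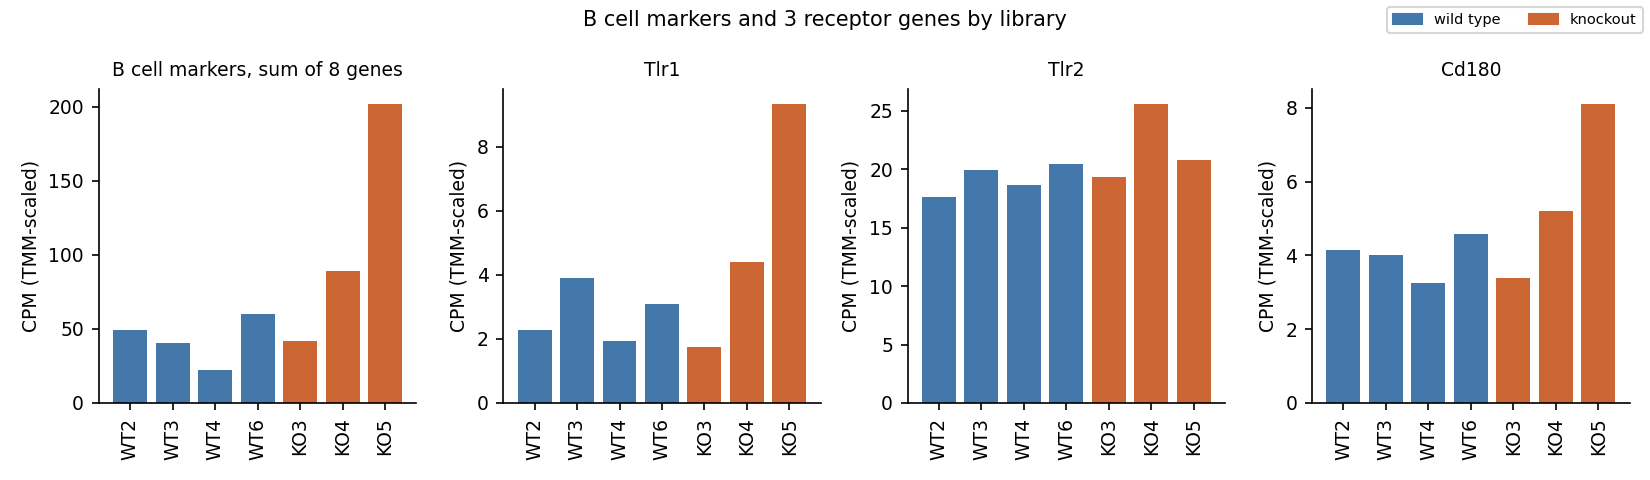
Summed CPM of 8 B cell marker genes and CPM of Tlr1, Tlr2 and Cd180 in each library, with wild type in blue and knockout in orange. KO5 is the tallest bar for the B cell markers (202 CPM), Tlr1 (9.34 CPM) and Cd180 (8.11 CPM), whereas KO4 is the tallest for Tlr2 (25.6 CPM).

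The flagellin receptor Tlr5 (chromosome 1, 182954788 to 182976044, plus strand) had 14.1, 11.05, 8.81 and 14.0 CPM in the wild type and 11.9, 14.6 and 12.5 CPM in the knockout libraries. Its log2 fold change was 0.12 (95% interval -0.28 to 0.51). It was -0.005 without WT4, 0.20 without WT2, 0.22 without WT6 and KO5, and 0.41 with the replicate block (unadjusted p = 0.0235, adjusted p = 0.753 in edgeR). The block value comes only from KO3, KO4 and the lowest wild type libraries for Tlr5, WT3 and WT4. The endosomal receptor Tlr3 (chromosome 8, 45395665 to 45411080, minus strand), which binds double-stranded RNA and signals without MyD88, had 27.8, 29.3, 25.7 and 24.4 CPM and 26.6, 28.2 and 22.2 CPM. KO5 was the lowest and WT6 the next lowest library, and the log2 fold change was -0.06 (95% interval -0.33 to 0.21). Gm45542 is annotated antisense to Tlr3, and where exons of the pair overlap, reads cannot be told apart without strand. The single-stranded RNA receptor Tlr7 (chromosome X, 167304929 to 167330558, minus strand) had 8.92, 13.1, 10.1 and 14.1 CPM and 10.5, 14.0 and 11.9 CPM, with a log2 fold change of 0.07 (95% interval -0.33 to 0.48, and 0.20 without WT6 and KO5). KO4 was the highest knockout library for all 3 receptors, and only for Tlr5 did it lie above every wild type library.

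**Figure D3:**
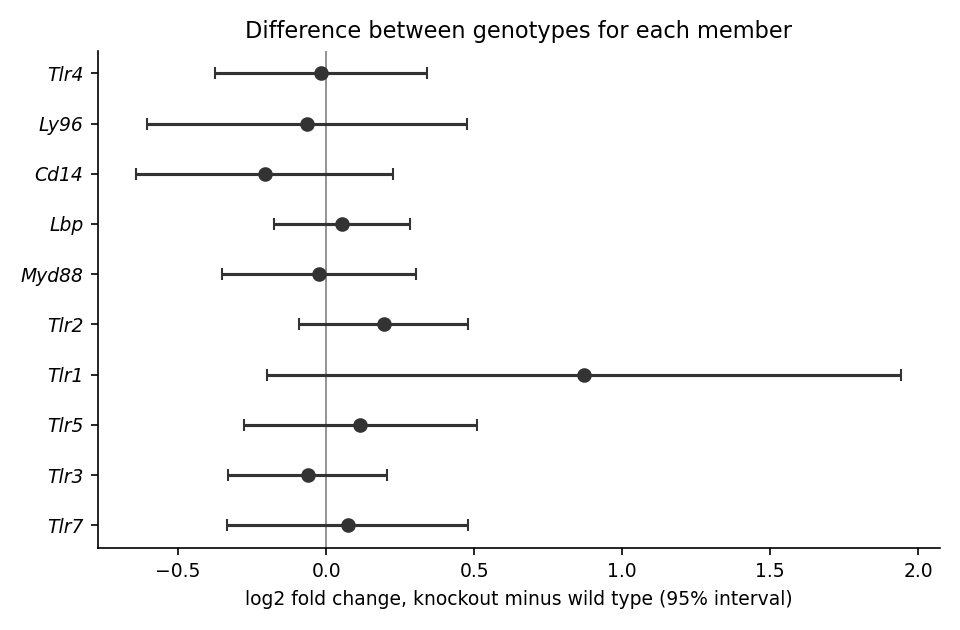
Log2 fold change of each gene, knockout minus wild type, with its 95% interval from edgeR. Every interval includes 0, and Tlr1 has the widest, from -0.20 to 1.94.

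Apart from Tlr1, the intervals give a narrower range of differences compatible with these libraries. Over the other 9 genes the lowest bound was -0.64 (Cd14) and the highest 0.51 (Tlr5), so that no interval reached a doubling or a halving. Each interval gives the differences compatible with the 4 and 3 libraries and is not a limit of detection. Larger estimates were also not called by edgeR, as for Lcn2 (1.12 ± 0.40 SE) and Ccl20 (3.33 ± 0.56 SE). The smallest difference that the test would call was not determined.

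Levels can be compared between genes only per length. Per kilobase of the longest annotated transcript, Lbp had the highest wild type level, 23.2 ± 2.45 CPM (SD, n = 4), followed by Cd14 (12.4 ± 3.54), Myd88 (10.4 ± 2.07) and Tlr4 (8.92 ± 2.04). Tlr2 (6.36 ± 0.43) and Tlr3 (6.08 ± 0.49) came next, then Ly96 (4.17 ± 0.99), Tlr5 (3.14 ± 0.67), Tlr7 (2.96 ± 0.63) and Tlr1 (0.93 ± 0.29), all in CPM per kilobase. The wild type ranges of neighbours in this order overlapped except between Lbp and Cd14, Tlr4 and Tlr2, Tlr3 and Ly96, and Tlr7 and Tlr1. The knockout means had the same order. With the summed length of all annotated exons in place of the longest transcript, Lbp had 12.1 and Ly96 2.72 CPM per kilobase, which placed Ly96 below Tlr7. Lbp (11.1 to 13.9) then overlapped Cd14 (8.52 to 16.1), Tlr4 (5.29 to 8.44) overlapped Tlr2 (5.84 to 6.79), and in the knockout libraries Tlr2 ranked above Tlr4 and Tlr5 above Ly96.

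All 8 genes of a list of the remaining Toll-like receptors and their relatives were tested and 0 were called. The lowest p values belonged to Cd180, a B cell receptor related to TLR4 (4.002 ± 0.55 and 5.57 ± 2.38 CPM), Tlr9, which binds DNA (3.78 ± 0.85 and 4.85 ± 1.67 CPM), and Tlr11 (1.24 ± 0.26 and 1.56 ± 0.19 CPM), each given for wild type and knockout. KO5 was the highest of the 7 libraries for all 3, at 8.11, 6.66 and 1.74 CPM, as it was for Tlr1. Without WT6 and KO5 the log2 fold change of Cd180 was 0.17 in place of 0.47, and that of Tlr9 was 0.018 in place of 0.35. The list median was 0.17 on the log2 scale, with 7 positive values and 1 negative value, against 48.0% positive over all genes.

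Downstream of the receptors, 0 of 17 adaptors and kinases, 0 of 16 transcription factors, 0 of 15 chaperones and LPS-handling genes and 0 of 17 negative regulators were called, with medians of 0.06, -0.00, 0.04 and 0.10. Among LPS-handling genes the lowest p values belonged to the scavenger receptors Marco and Cd36 and the caspase gene Casp4. Their log2 fold changes were 0.37, 0.32 and 0.18, and without WT6 and KO5 they were 0.61, 0.23 and 0.19. Marco had 6.87 to 12.3 CPM in the wild type and 8.40 to 15.8 CPM in the knockout libraries. Among transcription factors the lowest p values belonged to Nfkbiz, Rel and Irf8, and for each of these KO5 was the highest library. Their log2 fold changes were 0.25, 0.26 and 0.27, and without WT6 and KO5 they were 0.16, 0.17 and 0.04. The adaptor Ticam1, which serves TLR3 and TLR4, had 12.1 to 14.3 CPM in the wild type and 14.5 to 15.95 CPM in the knockout libraries. Its log2 fold change was 0.20 (adjusted p = 0.9998 in edgeR). The kinase gene Ikbke and the adaptor gene Ticam2 had 0.26 and 0.41, and without WT6 and KO5 they had 0.05 and 0.62. Among negative regulators, 16 of 17 values were positive against 48.0% of all genes, but the 17 genes share the same libraries. The list median was 0.030 without WT6 and KO5, 0.039 with the replicate block and 0.20 without WT4. The phosphatase gene Ptpn6 had 23.3 to 25.9 and 26.6 to 36.8 CPM (log2 fold change 0.30, unadjusted p = 0.0377). Without KO5 its value was 0.15 (unadjusted p = 0.257), and without WT6 and KO5 it was 0.12 (unadjusted p = 0.337). The signalling adaptor Pik3ap1 had 38.1 to 40.9 and 43.9 to 46.4 CPM (0.19, unadjusted p = 0.0660 in edgeR). Nfkbie, an inhibitor of NF-kB, had 0.38, and 0.18 without WT6 and KO5. Among the genes named here, groups did not overlap for Ticam1, Ptpn6 and Pik3ap1. They were named for the smallest p of their lists, a choice that favours groups without overlap. Over all genes 3.72% had such groups, and the share among all tested genes of these lists was not determined. KO5 was the highest library for Ptpn6, as for the B cell markers. Pik3ap1, which is known from B cells, had the other order, with KO3 its highest and KO5 its lowest knockout library. The part of B cells in the Ptpn6 values was not tested.

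Of 33 genes that Toll-like receptor signalling is known to induce, 32 were matched by symbol, 23 had enough counts to be tested, and 0 were called. The median was 0.14, with 16 positive and 7 negative values, against 48.0% positive over all genes. Of the 23 genes, 3 had an unadjusted p under 0.05 in edgeR, against 2.87% of all genes. The 23 genes share the same libraries. Their median was 0.064 without WT2, 0.081 without WT6 and KO5, and -0.012 with the replicate block. The chemokine gene Ccl20 had 4, 3, 3 and 3 counts in the wild type and 12, 29 and 57 counts in the knockout libraries (log2 fold change 3.33 ± 0.56 SE, adjusted p = 0.151 in edgeR and 0.000310 in DESeq2). Without WT6 and KO5 its log2 fold change was 2.57. With so few wild type counts the size of this fold change is uncertain. Lcn2, an iron-scavenging protein of neutrophils and airway epithelium, had 80.7, 136, 184 and 60.1 CPM in the wild type and 225, 334 and 192 CPM in the knockout libraries (log2 fold change 1.12 ± 0.40 SE, adjusted p = 0.9998 in edgeR). Il1a had 1.62 to 2.41 and 2.17 to 4.33 CPM. Groups did not overlap for Ccl20 and Lcn2, as for 3.72% of all genes, and both were named for their small p. Other classical products had log2 fold changes of -0.27 for Il1b, 0.47 for Tnf and -0.12 for Nos2, and none of them was called. Il6, Il10, Il12b and Cxcl2 were among the 9 genes with too few counts.

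**Figure D4:**
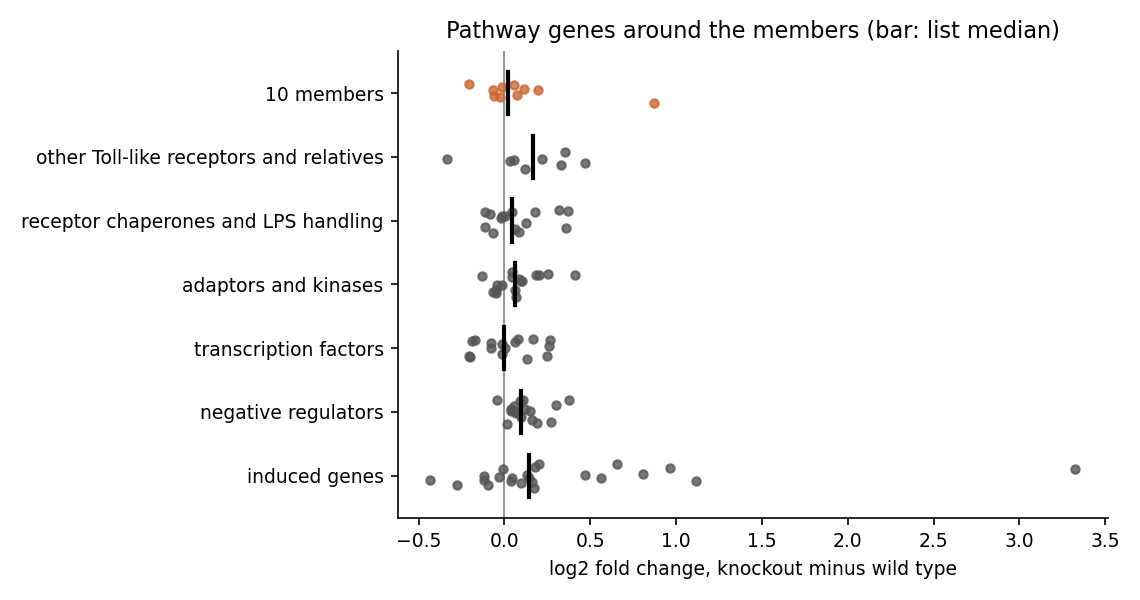
Log2 fold change (knockout minus wild type) of the 10 members in orange and of the tested genes of 6 pathway lists in grey, with a black bar at each list median. Medians lie between -0.00 and 0.17, and Ccl20 at 3.33 is the point farthest to the right.

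Markers of the myeloid cells that carry many of these receptors overlapped between genotypes in their summed levels, but not all did so as means of log2 values. The 12 monocyte and macrophage markers summed to 2468 to 3483 CPM in the wild type and 2846 to 2913 CPM in the knockout libraries, most of it Lyz2 (2236 to 3247 and 2614 to 2671 CPM). As a mean of log2 CPM over the 12 genes, in which each counts alike, they had 4.07 to 4.197 in the wild type and 4.22, 4.24 and 4.32 in KO3, KO4 and KO5, without overlap. The 10 alveolar macrophage markers summed to 503 to 681 and 602 to 706 CPM. Dendritic cell markers (9 genes) summed to 202 to 223 and 214 to 226 CPM. Most of this was Clec9a (76.4 to 129 CPM over all libraries) and Zbtb46 (56.6 to 84.7 CPM), while Xcr1 had 1.55 to 4.47 CPM. The mean log2 CPM of the 9 genes was highest in KO5, at 3.51 beside 2.89 to 3.15 in the wild type. The neutrophil markers (10 genes) summed to 13.7 to 29.1 and 24.5 to 27.7 CPM, with Ly6g at 1 count in all libraries together. None of these markers was called. Which cells their reads came from, and their part in the members' values, were not tested. A sum carried by 1 or 2 genes need not follow the cells it is named for.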

How the data were processed

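Total RNA of lung was sequenced in 7 libraries, grouped by the genotype in the labels. The authors deposited unnormalized counts of reads for each gene. Per the submitters' processing notes, STAR, DESeq2 and the build mm10 were used, without versions or roles. The sources used here do not give the counting program, its annotation or its strand setting. All 28828 entries name genes by symbol. No 2 libraries of a group agreed within sampling noise (lowest chi-square over degrees of freedom 4.30).

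Genes were compared with edgeR 4.0.16 (filterByExpr, TMM, robust quasi-likelihood, genotype as the only term, two-sided, Benjamini-Hochberg over 19832 genes). The 95% intervals use the SE that the quasi-likelihood F gives. DESeq2 1.42.0 and limma 3.58.1 (voom), other scalings, no filter, a replicate block and left-out libraries were alternatives. The procedure was tested on simulated data. Log2 CPM for likeness used a prior count of 2. An exact permutation test was planned for members whose groups do not overlap, and none qualified. Positions and lengths are from GENCODE M21 (GRCm38).

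The members, the pathway lists and the alternatives were chosen with earlier results of these data known. Named are all members, the 3 genes with the smallest p of each pathway list, and the 2 genes most like each member where described. Tlr6, Tnf, Il1b, Nos2, Alb, Cyp2e1, Ncr1, Nkg7 and Klrb1c were named after their values were seen or as markers. Likeness is given for Tlr1 in the report and for the other members in the closing section.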

Additional observations from a re-analysis of the deposited data

How the results depend on the processing

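Of 15 alternatives, 14 called 0 members, with member medians of -0.04 to 0.08. The replicate block called 1, Cd14 (log2 fold change -0.55, adjusted p = 0.0490, against 0.418 as the lowest adjusted p of any member elsewhere), beside 140 genes (0.706%). The genotype difference in it comes only from numbers 3 and 4, which both genotypes share (WT3, WT4, KO3 and KO4). WT2, WT6 and KO5 each have a number of their own. Little was therefore left to estimate the spread, and p-values with this block are uncertain. Deviations from the group mean correlated at 0.236 (WT3 with KO3) and 0.201 (WT4 with KO4). Libraries with different numbers correlated alike, at 0.236 for WT4 with KO3 and 0.221 for WT3 with KO4. These values therefore cannot tell whether the numbers pair the libraries, and the labels do not say. Genes called numbered 60 with DESeq2, 14 without WT6 and KO5, 29 with a term for that pair, and 3 to 41 with 1 library left out (3 without WT2, WT3 or WT4, 41 without KO3). Tlr1, Tlr2 and Cd14 kept their sign throughout. Signs turned for Tlr4 (0.0061 with limma-voom and 0.051 without WT6 and KO5), Myd88 (0.0012 with limma-voom) and Lbp (-0.050 with the block). With 1 library left out, Tlr4 ranged from -0.11 to 0.13, Myd88 from -0.12 to 0.095, Tlr7 from -0.044 to 0.19, Tlr5 from -0.0047 to 0.20, Tlr3 from -0.14 to 0.037, Ly96 from -0.20 to 0.080 and the transcription factor Irf8 from -0.016 (without KO5) to 0.42. Ccl20 passed with no filter (adjusted p = 0.0393), DESeq2, the block (0.0178), the term for WT6 and KO5 (0.00551) and without KO3 (0.00604). Lcn2 passed only with the block (log2 fold change 0.79, adjusted p = 9.84e-11 in edgeR), where the p-value rests on few libraries. In the main fit its adjusted p was 0.9998. The induced-gene median turned to -0.012 with the block. The causes were not tested. Ly96 and Tlr1 had the fewest counts, 26 to 129 a library. For Ly96 and for Tlr1 counting gave 15.9% and 11.6% in the knockout libraries, beside observed coefficients of variation of 2.57% and 74.6%.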

Other observations

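Members also differed in which other members they followed. Over the 7 libraries, log2 CPM of Cd14 and Myd88 had a Pearson r of 0.935, Lbp and Myd88 0.897, and Tlr4 and Tlr7 0.798, while Tlr5 had -0.886 with Cd14. The points share libraries and scaling, and these are descriptions without a test.

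The genes most like each of the other members, by the same measure, were Gm15560 and Sos1 for Tlr2 (0.969 and 0.967), Exosc9 and Gm12577 for Tlr3 (both 0.993), and Gm44982 and Agps for Tlr4 (0.996 and 0.989). They were Man2c1os and Gm22478 for Tlr5 (0.993 and 0.967), Cept1 and Gm43921 for Tlr7 (0.980 and 0.967), and Zmynd19 and Coq7 for Cd14 (0.970 and 0.960). For Ly96 they were Gm10115 and 4921531C22Rik (0.993 and 0.988), for Lbp Qsox1 and Cbx6 (0.976 and 0.974), and for Myd88 Ranbp10 and Zfp707 (0.980 and 0.979). None of these genes belongs to the pathway lists.

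The ratio of Cd14 to Tlr4, both in CPM per kilobase, was 1.22, 1.37, 2.36 and 0.90 in WT2, WT3, WT4 and WT6 and 1.204, 1.25 and 1.19 for the knockout libraries. The 3 knockout ratios lay close together inside the wild type range. The ratio of Tlr2 to Tlr1 was 5.13 to 9.73 in the wild type and 11.04 (KO3), 5.85 (KO4) and 2.23 (KO5) in the knockout, so that the knockout libraries held both the highest and the lowest value.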
